A study of Drosophila melanogaster with 4 samples.

Results

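The metallothionein genes MtnA, MtnB, MtnC, MtnD and MtnE of Drosophila melanogaster were followed in ovaries of snf148 mutant and wild-type females. The members are the rows of the deposited tables that carry one of these gene symbols. All 5 were found, among 1283 genes that the authors listed as differing between the genotypes. They were chosen by the deposited mean FPKM of these same libraries, so the levels and ratios below are a description of the members and carry no test. A sixth member of the family, MtnF, is not among the listed genes, which says nothing about its level.

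RNA from ovaries was sequenced in 2 libraries per genotype. The mutants had the full genotype y w snf[148] v and were adults of 3 days. The wild-type controls were y w, and were virgins aged 0 to 24 hours. The markers y and w were thus shared by both groups, whereas the eye colour marker v was named for the mutants only, and age differed along with genotype. Whether the mutants were virgins is not given in the sources used here, nor is the number of females behind a library. The gene sans fille (snf) encodes a shared subunit of U1 and U2, ribonucleoprotein particles of pre-mRNA splicing. Each value is the authors' mean FPKM over the libraries of one genotype, that is, fragments scaled to transcript length and to the mapped fragments of the library. No value per library was analysed here, so the depth is unknown, no SD stands beside a mean, and a difference between genotypes cannot be set against the spread between libraries beyond what the authors' own P value does. The labels do not say whether the libraries of a genotype came from separate groups of flies.

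Metallothioneins are very small, cysteine-rich proteins that bind copper, zinc and cadmium through their thiol groups, buffering these metals and limiting their toxicity. In the fly, the metal-responsive transcription factor MTF-1 switches on their genes when copper, cadmium or zinc is in excess. They are best known from the gut and other tissues that take up or store metals. MtnA is the family member most closely tied to copper, and MtnB is the one best known for protection against cadmium. MtnC, MtnD and MtnE were described later as metal-inducible relatives.

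The family was split. MtnA was the most abundant member in both genotypes and stood 2.27-fold higher in snf148 ovaries, whereas MtnB, MtnC, MtnD and MtnE stood 4.87-fold to 7.71-fold lower. The tables thus hold 1 member in the higher direction, against 51.8% of all listed genes, and 4 in the lower direction, against 48.2%. A 4-fold difference was passed by all 4 lower members and by 9.98% of all listed genes in that direction. MtnA did not reach it, whereas 30.2% of all listed genes did in the higher direction. The members were chosen by these same values, and nothing is read from their counts beside these shares. The median log2 ratio of mean FPKM, snf148 over wild type, was -2.71 over the 5 members and 0.62 over the 1242 listed genes above 0 in both genotypes. Over the 616 lower genes above 0 in both genotypes it was -1.06. The tissue was bulk ovary, so fewer cells that contain a transcript and less of it per cell cannot be told apart.

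**Figure D1:**
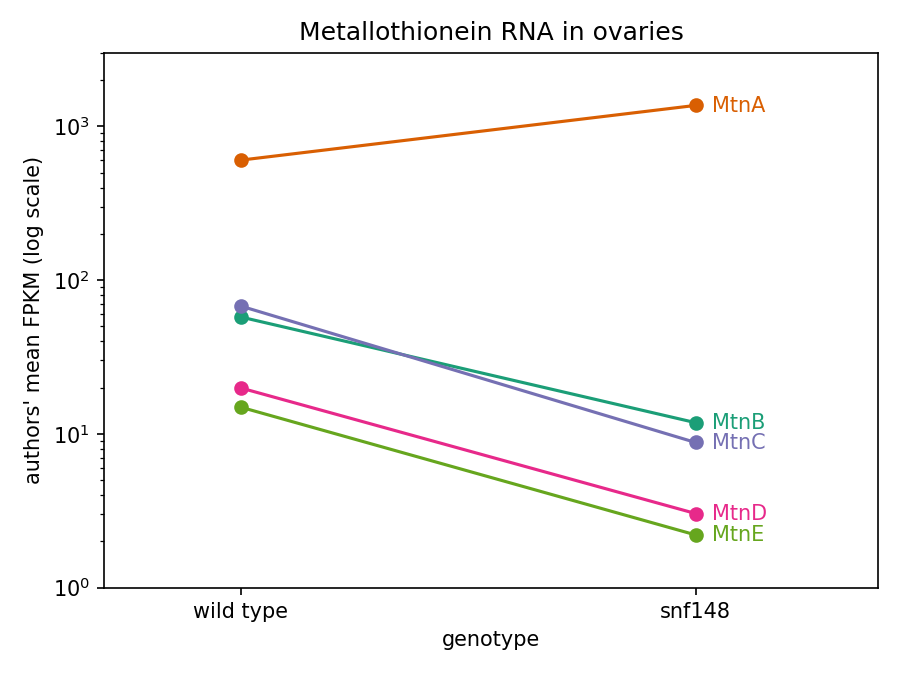
Mean FPKM of the 5 metallothionein genes as deposited by the authors (log axis), for wild-type and snf148 ovaries; each point is the mean of 2 libraries and a line joins the values of a gene, with no error available. MtnA goes up from 603 to 1369 FPKM while the lines of the other 4 genes go down.

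MtnA had a mean of 1369 FPKM in snf148 ovaries and 603 FPKM in wild-type ovaries, a log2 ratio of 1.18. By mean FPKM it ranked 5th of the 1283 listed genes in snf148 and 27th in wild type. The level of MtnA was therefore among the highest of the listed genes in either genotype, while its ratio was modest for a listed gene. It ranked 523rd by log2 ratio among the 665 higher genes, whose median log2 ratio was 2.26 over the 626 that were above 0 in both genotypes. The authors' deposited table gives MtnA a P value of 5e-05 and an adjusted P value of 0.00126, the smallest in the tables and shared by 466 genes.

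MtnC had the largest ratio of the family, with a mean of 8.79 FPKM in snf148 and 67.8 FPKM in wild type, a log2 ratio of -2.95. It ranked 63rd by size of the log2 ratio among the 618 lower genes. MtnB, the cadmium-associated member, had means of 11.8 FPKM in snf148 and 57.5 FPKM in wild type. Its log2 ratio of -2.28 was the smallest in size of the 4 lower members and ranked 111th among the lower genes.

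MtnD and MtnE were the least abundant members in both genotypes. The mean of MtnD was 3.03 FPKM in snf148 and 19.9 FPKM in wild type, a log2 ratio of -2.71. The mean of MtnE was 2.20 FPKM in snf148 and 14.9 FPKM in wild type, a log2 ratio of -2.76. Their log2 ratios thus lay close together, and they ranked 77th and 73rd by size among the lower genes. All 4 lower members stayed above 1 FPKM in snf148, so none of their ratios was taken against a group at 0.

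**Figure D2:**
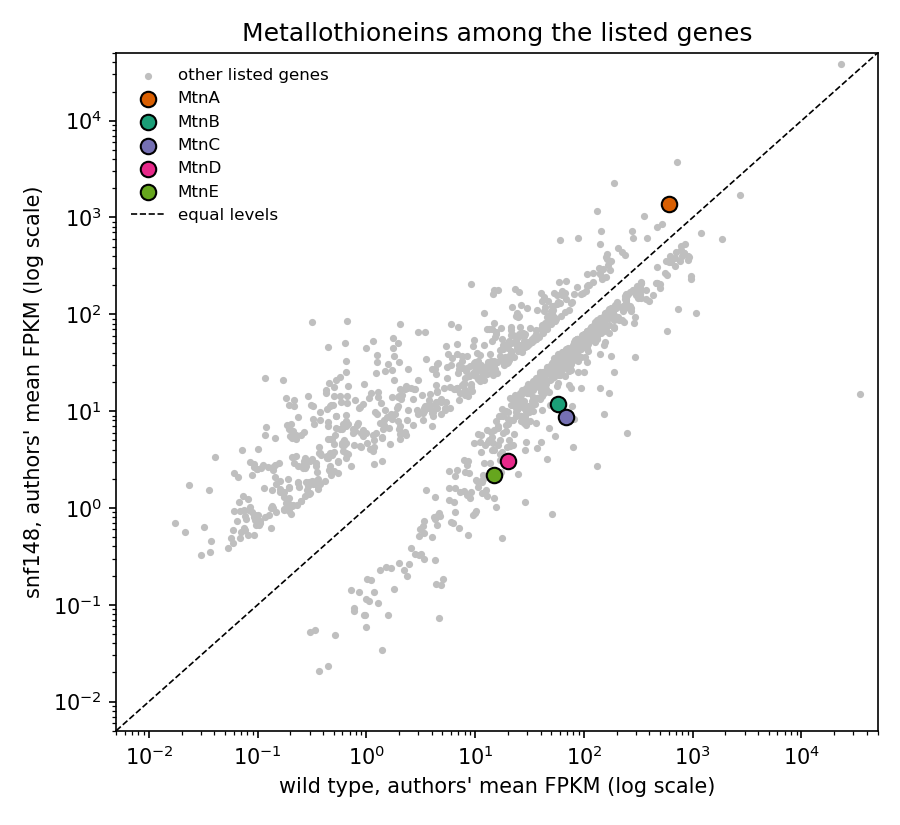
Mean FPKM in wild type (x axis) against snf148 (y axis), both on log axes, for the 1242 listed genes above 0 in both genotypes; coloured points are the metallothioneins and the dashed line marks equal levels. MtnA lies above the line near the top of the level range, and the other 4 members lie below it.

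In order of mean FPKM, the wild-type series ran MtnA, MtnC, MtnB, MtnD and MtnE, and the snf148 series ran MtnA, MtnB, MtnC, MtnD and MtnE. The exchange of places concerned MtnB and MtnC, whose FPKM ratio, MtnB over MtnC, was 0.849 in wild type and 1.35 in snf148. Without values per library, it cannot be said whether neighbours in either order differed beyond their spread. The FPKM ratio of MtnD over MtnE was nearly the same in both genotypes, at 1.33 in wild type and 1.38 in snf148. MtnC over MtnE stood at 4.55 in wild type and 3.99 in snf148, and MtnB over MtnE at 3.86 and 5.37. The levels of the 4 lower members relative to each other thus differed far less between the genotypes than their levels relative to MtnA.

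Because the members moved in opposite directions, the make-up of the family's RNA differed between the genotypes. The summed mean FPKM of the 5 genes was 1394 in snf148 and 763 in wild type, a log2 ratio of 0.87, and this sum followed MtnA. MtnA supplied 98.1% of it in snf148 and 79.0% in wild type. The sum of MtnB to MtnE was 25.8 FPKM in snf148 and 160 FPKM in wild type, a 6.19-fold lower value. Their joint share of the family was 1.85% in snf148 and 21.0% in wild type. In wild type MtnC contributed 8.88% and MtnB 7.54% of the family sum, and in snf148 these shares were 0.630% and 0.848%.

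The ratio of MtnA to the sum of MtnB to MtnE within a genotype is not altered by a factor common to all genes of one genotype's means. It was 53.0 in snf148 and 3.77 in wild type, and so 14.1-fold larger in snf148. The FPKM of MtnA exceeded that of MtnC 156-fold in snf148 and 8.90-fold in wild type. These within-genotype ratios describe unequal differences in mean FPKM among the members, and do not show which of them changed per cell. A factor that acts by transcript length would not cancel in them.

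**Figure D3:**
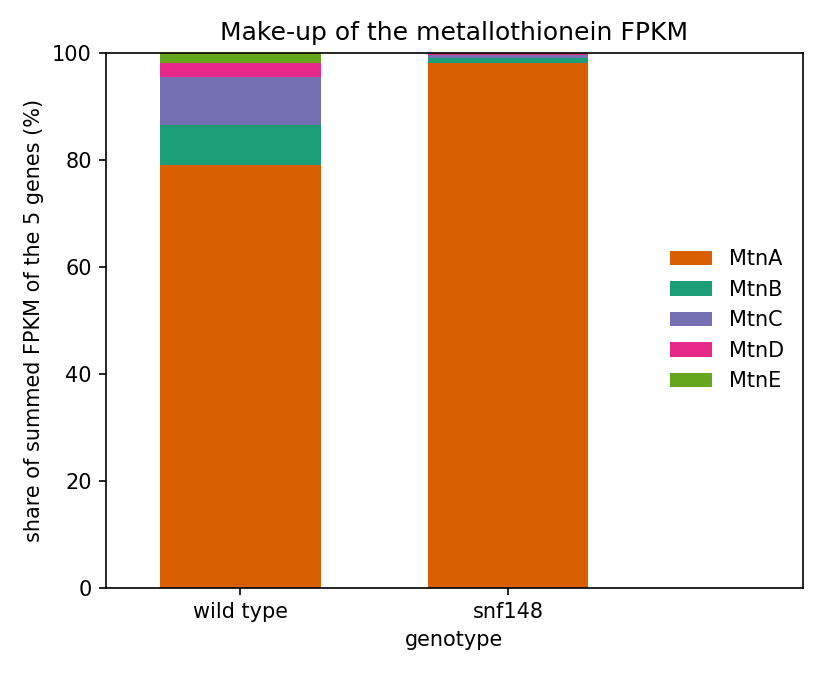
Share of each metallothionein in the summed mean FPKM of the 5 genes (y axis, percent), for wild-type and snf148 ovaries, with no error available. MtnA takes 79.0% of the bar in wild type and 98.1% in snf148, and MtnB to MtnE together 21.0% and 1.85%.

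MtnA, the only higher member, lies far from the 4 lower members on the chromosome. With a single higher member, any trait that sets MtnA apart goes with direction. Its locus of 964 bp, against 327 to 426 bp, also does so. The same holds for its wild-type level of 603 FPKM, against at most 67.8 FPKM. A part of position in the direction was not tested. All 5 genes lie on arm 3R. In the build of the deposited tables, which is not named, and with starts counted from 1, MtnA (FBgn0002868) runs from 5609129 to 5610092. MtnC (FBgn0038790) runs from 16186030 to 16186356 and MtnB (FBgn0002869) from 16328960 to 16329340. MtnE (FBgn0262146) runs from 16360001 to 16360426 and MtnD (FBgn0053192) from 16360684 to 16361023. MtnA, the higher member, is thus separated by 10.6 Mb from the nearest of the other 4, and the lower members lie within a stretch of 175 kb.

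Within that stretch, 143 kb separates MtnC from MtnB and 30.7 kb separates MtnB from MtnE. MtnE and MtnD are direct neighbours with 257 bp between them. In release 6 of the reference annotation they lie on opposite strands. Their starts flank the same 257 bases, and transcription runs outward from there. No other listed gene lies between MtnC and MtnD. Apart from MtnE and MtnD, which are each other's neighbours, no member has a listed gene within 25 kb.

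The members are short genes. In release 6 every annotated transcript of the 5 genes has 2 exons, and no other annotated gene overlaps any of them. Spliced lengths are 268 bases for MtnC, 274 for MtnD, 320 to 456 for the transcripts of MtnB and 344 to 604 for those of MtnE. MtnA has a transcript of 329 bases and another of 700 bases with a longer last exon. The locus in the tables spans 964 bp for MtnA, equal to the genomic span of the longer of these transcripts, and 381 bp for MtnB, equal to that of its shortest. For MtnC and MtnD the locus also equals the span of the annotated transcript. The MtnE locus of 426 bp equals neither of its transcripts, which span 424 and 684 bp. The sequencing used paired reads of 100 bases, per the labels' protocols. FPKM of transcripts this short depends on the fragment length assumed in the calculation, which is not given in the sources used here. This limits how far levels of different members can be compared. The levels of one member in both genotypes are comparable only if fragment length was alike in the libraries of both, which is not given either.

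The deposited P values of the 4 lower members were above the median of listed genes with ratios as large. In the authors' deposited table the P value was 0.00120 for MtnE, 0.00160 for MtnC, 0.00215 for MtnB and 0.00375 for MtnD. The adjusted P values there were 0.0162, 0.0202, 0.0252 and 0.0380 in the same order, where the largest adjusted P value of any listed gene was 0.0497. Of the 111 lower genes with a log2 ratio at or below that of MtnB, those at 0 in snf148 included, 38 had the smallest P value of the tables. Of all 1283 listed genes, 466 had it. None of the 38 was a metallothionein, and with 4 members nothing is read from that. The median P value was 0.00188 for the 4 members and 0.00045 for the other 107 genes. Counted from the largest P value of the 111, MtnD ranked 10th and MtnE 39th, with MtnB and MtnC between them. At a limit of 0.01 on the adjusted P value MtnA is the sole one of the 5 to remain, and such calls make up 33.0% of all listed genes in the higher direction and 27.1% in the lower.

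**Figure D4:**
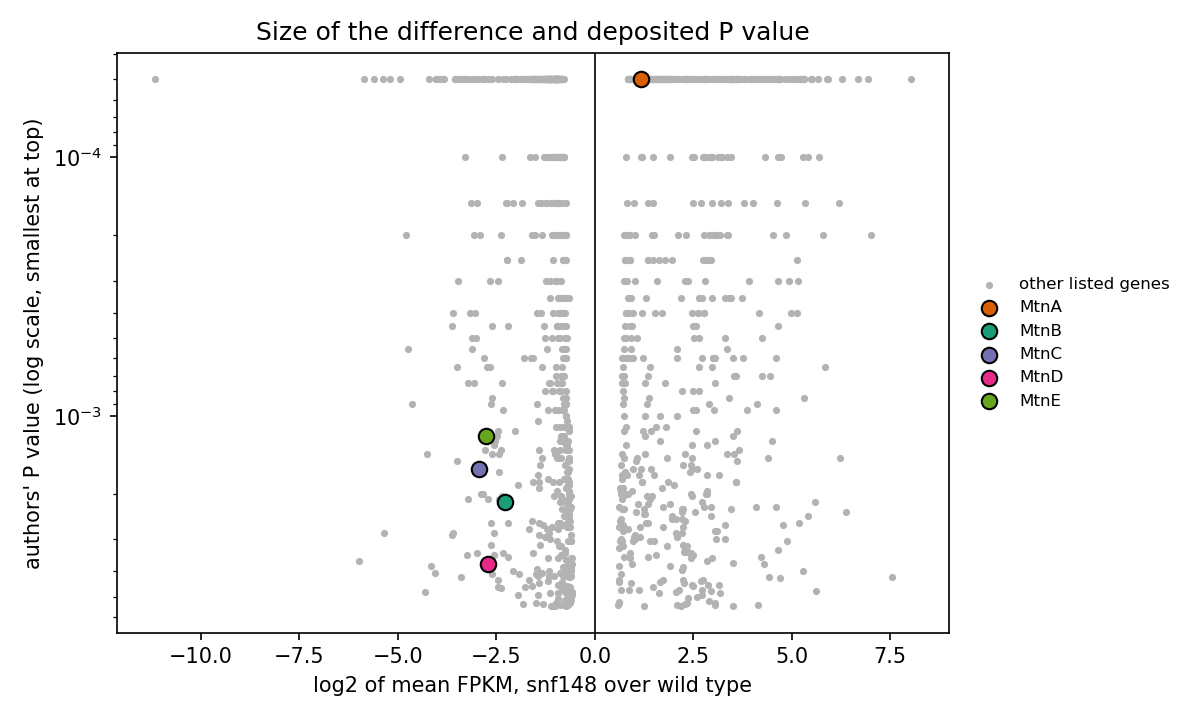
Log2 ratio of mean FPKM, snf148 over wild type (x axis), against the authors' P value (y axis, log scale with the smallest at the top), for the listed genes above 0 in both genotypes. MtnA lies at 1.18 in the top row at 5e-05, and MtnB to MtnE lie between -2.95 and -2.28 with P values of 0.00120 to 0.00375.

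Among other genes of metal handling, a zinc transporter gene was listed as lower and a transferrin gene as higher. How many genes the authors tested is not given in the sources used here, so the counts below have no overall share beside them. Of 9 genes for copper uptake, delivery and export, a list that includes MTF-1 and the copper transporter gene Ctr1A, 0 were listed in either direction. Of 17 zinc transporter genes 1 was listed, and it was lower. This was ZnT35C, which encodes a zinc exporter that is itself induced by zinc, with means of 25.3 FPKM in snf148 and 88.0 FPKM in wild type. Its log2 ratio was -1.80, with an adjusted P value of 0.00126 in the authors' deposited table. MtnB to MtnE and 48.2% of all listed genes were lower too. Of 13 iron genes 1 was listed, the transferrin gene Tsf1, which encodes a secreted iron carrier. Tsf1 stood higher in snf148, at 270 against 140 FPKM, a log2 ratio of 0.94 with an adjusted P value of 0.00126 in the same table. MtnA and 51.8% of all listed genes were higher as well. A link of ZnT35C or Tsf1 to the metallothionein differences was not tested.

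Of 53 genes of glutathione use and oxidative stress defence, 2 were in the tables as higher and 2 as lower. The glutathione S-transferase gene GstE5 had means of 8.81 FPKM in snf148 and 0.525 FPKM in wild type. Another of the class, GstE14, went the other way, at 2.27 FPKM in snf148 and 24.9 FPKM in wild type; in the fly this enzyme is known for its part in ecdysteroid synthesis. GstT3 also stood lower, at 28.9 against 73.9 FPKM. The autophagy receptor gene ref(2)P stood higher, at 161 against 93.3 FPKM. The largest adjusted P value of these 4 in the authors' deposited table was 0.00673, that of ref(2)P. A gene absent from the tables has no value here, so these counts do not show that the other genes of a list kept their level.

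Ovarian identity could be checked on listed genes only. The germline genes osk, orb and grk, out of 7 germline markers, and 6 of 8 follicle cell markers were listed, all above 0 in both genotypes. The 3 germline genes were lower and the 6 follicle cell genes higher in snf148. Their summed mean FPKM was 338 in snf148 and 1199 in wild type for the germline markers. For the follicle cell markers it was 2831 and 541. Most of the follicle cell sum came from Yp1 at 1173 and 131 FPKM, Yp2 at 729 and 145, and Yp3 at 534 and 140. Fas3, cas and Vm26Aa had log2 ratios of 1.63, 1.64 and 1.69. The eggshell gene yellow-g2, outside this list, went the other way, at 2.20 FPKM in snf148 and 11.8 FPKM in wild type. The cell source of these transcripts was not tested, and age differed along with genotype. For snf itself the tables hold no row, and the label of the mutants has no check on its RNA.

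Markers of tissues outside the ovary also differed between the groups, which differ in age as well as genotype. Of 14 gut markers, a tissue known for metallothionein expression, the protease gene Jon65Aiv alone was listed, at 0.773 FPKM in snf148 and 4.25 FPKM in wild type. Of 6 Malpighian tubule markers, the transporter genes Oatp58Db and Oatp58Dc were listed, both lower, with summed means of 3.35 FPKM in snf148 and 10.3 FPKM in wild type. Both listed muscle markers out of 8, Act79B and Act88F, were lower, with sums of 3.93 and 29.0 FPKM. Fat body markers were split, with Rfabg higher and Lsp1gamma lower out of 8 and sums of 98.9 FPKM in snf148 and 166 in wild type. The 3 listed haemocyte markers out of 7, Pxn, proPO-A1 and proPO45, were higher, with sums of 127 and 29.0 FPKM. No listed marker was at 0 in either genotype. The listed germline, gut, tubule and muscle markers shared the direction of MtnB to MtnE. The haemocyte and follicle cell markers shared that of MtnA, and the fat body markers went both ways. Of all listed genes, 48.2% were lower and 51.8% higher. The gut rests on 1 listed marker, and tubule and muscle on 2 each, so nothing is read from a shared direction. The part of these cells and tissues in the metallothionein differences was not tested.

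The listed genes most like each member were taken as those nearest on a plane of log2 mean FPKM in wild type and in snf148, that is, over 2 genotype means. For MtnC the nearest was AttC, an antibacterial peptide gene, at 8.63 FPKM in snf148 and 68.9 FPKM in wild type, a distance of 0.035 on the log2 scale. The peptidoglycan recognition gene PGRP-SB1 and the phagocytic receptor gene nimC4 followed, at distances of 0.27 and 0.42. For MtnB the nearest genes were CG3699 at 0.24, nimC4 at 0.44 and MtnC at 0.49. MtnC was the sole metallothionein among the 3 genes nearest to another member.

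For MtnD the nearest genes were CG15766, Gal, which encodes a beta-galactosidase, and CG13636, at distances of 0.19, 0.24 and 0.35. For MtnE they were CG17470, the eggshell gene yellow-g2 and the glucosidase-like gene tobi, at 0.25, 0.34 and 0.36. Few listed genes reach the level of MtnA, which ranked 5th in snf148 and 27th in wild type, and none was as close to MtnA. Its nearest were the tetraspanin gene Tsp42Ee, the small heat shock gene Hsp26 and the actin gene Act42A, at 0.70, 0.86 and 0.87. With 1 mean per genotype, closeness on this plane describes level and ratio together and nothing more.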

How the data were processed

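Per the labels' protocols, stranded libraries were made from total RNA and read as pairs. TopHat2 2.0.9 and Cuffdiff were used, per the submitters' processing notes. The genome build was not given in the sources used here, nor were the gene models and the use of strand in counting. The authors deposited 2 tables of their own comparison, each with the mean FPKM per genotype. Per the file headers, the deposited log2 fold change is wild type over snf148, and the P value and adjusted P value are the authors'. The table titled downregulated therefore holds genes higher in snf148. The log2 ratios given, snf148 over wild type, were recomputed from the deposited mean FPKM with no pseudocount.

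Depth per library is unknown, and limma, planned in case values per library existed, was not run. Starts were moved to count from 1. Names matched release 6 of the reference for 1265 of 1283 genes. The members and lists were chosen with earlier results of these data known. Genes named were the members, all listed genes of the fixed lists (the 4 highest per direction where a list had over 6), listed genes within 25 kb, and the 3 nearest genes per member. The grouping of genes by locus length in the closing section was chosen after their values were seen. The nearest-gene search was tested on simulated data. Python 3.11.15, pandas 2.3.3, NumPy 2.4.6 and Matplotlib 3.10.9 were used. Alternatives were pseudocounts of 1 and 0.1 FPKM, the authors' log2 values, a limit of 0.01 on the adjusted P value, at least 1 FPKM, at least 4-fold, and leaving out each member.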

Additional observations from a re-analysis of the deposited data

How the results depend on the processing

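No paired analysis was possible because the deposited tables give 1 mean per genotype and no value per library; for the same reason leaving out each replicate was not run. At a limit of 0.01 on the adjusted P value the count of lower metallothioneins went from 4 to 0 and that of higher ones stayed at 1. With at least 4-fold required these counts were 4 and 0, the zinc and iron lists had 0 listed genes, and the glutathione and oxidative stress list had 1 higher and 1 lower; fewer genes are counted by construction. The median log2 ratio of the members was -2.31 with a pseudocount of 1 FPKM and -2.67 with 0.1 FPKM. The log2 ratio of the summed FPKM was 0.97 without MtnB and 0.99 without MtnC, and turned to -2.63 without MtnA, since MtnA dominates the sum. The log2 ratios of MtnB to MtnE ranged from -2.81 to -2.19 with a pseudocount of 1 FPKM. The sign of each member's own log2 ratio was kept under both pseudocounts and in the authors' deposited values. The depth is unknown, so the counting error behind each member's mean FPKM could not be given.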

Other observations

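Other short loci with ratios as large as those of MtnB to MtnE mostly had small deposited P values. This grouping was chosen after the values were seen. The part of locus length or level in the P values was not tested. Of the 107 other lower genes with a log2 ratio at or below that of MtnB, those at 0 in snf148 included, 8 had a locus of at most 500 bp in the tables. Of these 8, 7 had the smallest P value of the tables. Of the 99 with a longer locus, 31 had it, or 31.3%. The 7 short loci were CG3513, CR40469, Dpt, IM1, IM14, IM2 and IM3, and the eighth was CG15065, with a P value of 0.00020 in the authors' deposited table. IM14 was listed at 0 in snf148 and has no ratio of its own. IM1, IM2, IM3, IM14 and CG15065 encode small immune-induced peptides and Dpt an antibacterial peptide. MtnB to MtnE, with loci of 327 to 426 bp, had P values of 0.00120 to 0.00375 in the same table. CR40469, IM3 and IM2 were far above them in level, at 34744, 1076 and 733 FPKM in wild type. Among the 8 genes, CG3513 and Dpt came near MtnB and MtnC in level. CG3513 was at 5.53 FPKM in snf148 and 54.5 FPKM in wild type, and Dpt at 17.2 and 94.1 FPKM. All 8 were at 47.0 FPKM or more in wild type, so MtnD and MtnE had no counterpart of their level among them.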
